A study of Petunia x hybrida with 12 samples.

Results

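A group of 58 petunia pistil genes was examined whose mean read count differed at least 2-fold between PhTPS1 RNAi and wild-type flowers on the day after opening, and lay close to equal on the day before. They were 58 of the 35812 gene IDs counted. In the RNAi pistils 14 of them stood higher and 44 stood lower at day +1. The choice rested on CPM values (the count of an ID scaled to the same total in each library), so the differences at day +1 and the near equality at day -1 are descriptions of what was chosen and not findings.

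The pistil is the female organ of the flower, made of stigma, style and ovary. It completes its growth in the closed bud and turns to pollen reception once the flower opens, and its transcripts change between these stages. Terpene synthases make the carbon skeletons of volatile terpenoids. PhTPS1 is a sesquiterpene synthase of petunia petal tubes, and its volatile products accumulate in the neighbouring pistil while the bud is closed.

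Flowers of the cultivar Mitchell of Petunia x hybrida, the garden petunia, were used, and polyadenylated RNA of whole pistils was sequenced. Wild-type pistils (WT) and pistils of plants with RNA interference against PhTPS1 (tps1) were taken at 14:00, either on day -1 or on day +1 relative to flower opening. Each of the 4 groups held 3 libraries. The labels name no RNAi line, no promoter and no control construct. What the loss of PhTPS1 does and what else differs between these plants cannot be told apart. They do not say whether libraries came from separate plants, and p-values measure the spread between these libraries, which may be technical. Because the file does not pair IDs with gene names, no product, position, sequence or role is given for any member, PhTPS1 itself was not looked up, and the tissue was not checked against markers.

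Members met 6 conditions. The 3 tps1 and 3 WT values at day +1 did not overlap, the ratio of their means (each plus 0.1 CPM) was at least 2 in either direction, and the higher mean was at least 2 CPM. The ratio of tps1 to WT at day -1 lay between 0.8 and its inverse. WT day +1 replicate 3 was under 2 times replicate 2, and the 6 day +1 and 6 day -1 libraries had means within 32-fold of each other. Of 17277 IDs with a high enough mean at day +1, 3310 had no overlap, and 160 of these reached the 2-fold ratio. The conditions on the WT replicates and on the days left 147 of the 160. Of these, 58 lay inside the day -1 window, another 58 had a day -1 ratio above it and 31 had one below it.

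Library totals ranged from 19576755 to 30357964 counts, so that 3 counts, taken as the detection floor, were worth 0.0988 to 0.153 CPM. Libraries of a group were less alike at day -1. Over the 17277 IDs, tps1 day -1 replicate 2 differed at least 2-fold from the mean of the other libraries of its group at 8.32% and WT day -1 replicates 2 and 3 at 6.19 and 6.64%, against 0.081 to 0.289% for the 3 tps1 day +1 libraries. In WT at day +1 the share was 2.98, 4.78 and 5.32% for replicates 1, 2 and 3. Counting only IDs at least 2-fold above the mean of the other libraries, it was 0.243, 0.0926 and 5.06%. Among the 58 members, tps1 day -1 replicate 2 differed from its group in this way at 11, and WT day +1 replicates 1 and 3 at 8 and 7. The results without these libraries are given further on.

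At day +1 the 14 higher members were 2.02 to 3.63 times as high in tps1 as in WT, with a median of 2.17. The 44 lower members were 2.01 to 31.2 times as high in WT as in tps1, with a median of 2.27. Most of the lower differences were near the 2-fold limit: 19 of 44 reached 2.5-fold, 9 reached 3-fold, 4 reached 4-fold and 2 reached 8-fold. In whole pistils, fewer cells of a type and less RNA per cell cannot be told apart. The higher of both day +1 means was 2.24 to 72.5 CPM for the higher members and 2.56 to 321 CPM for the lower ones. It was under 5 CPM in 6 of the 14 higher and 17 of the 44 lower members. In 11 of the lower members it exceeded 100 CPM. The distance between the nearest libraries of the genotypes was smaller than the ratio of the means, with a median of 1.63-fold in either direction. It went down to 1.11-fold among the higher members and 1.02-fold among the lower ones.

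**Figure D1:**
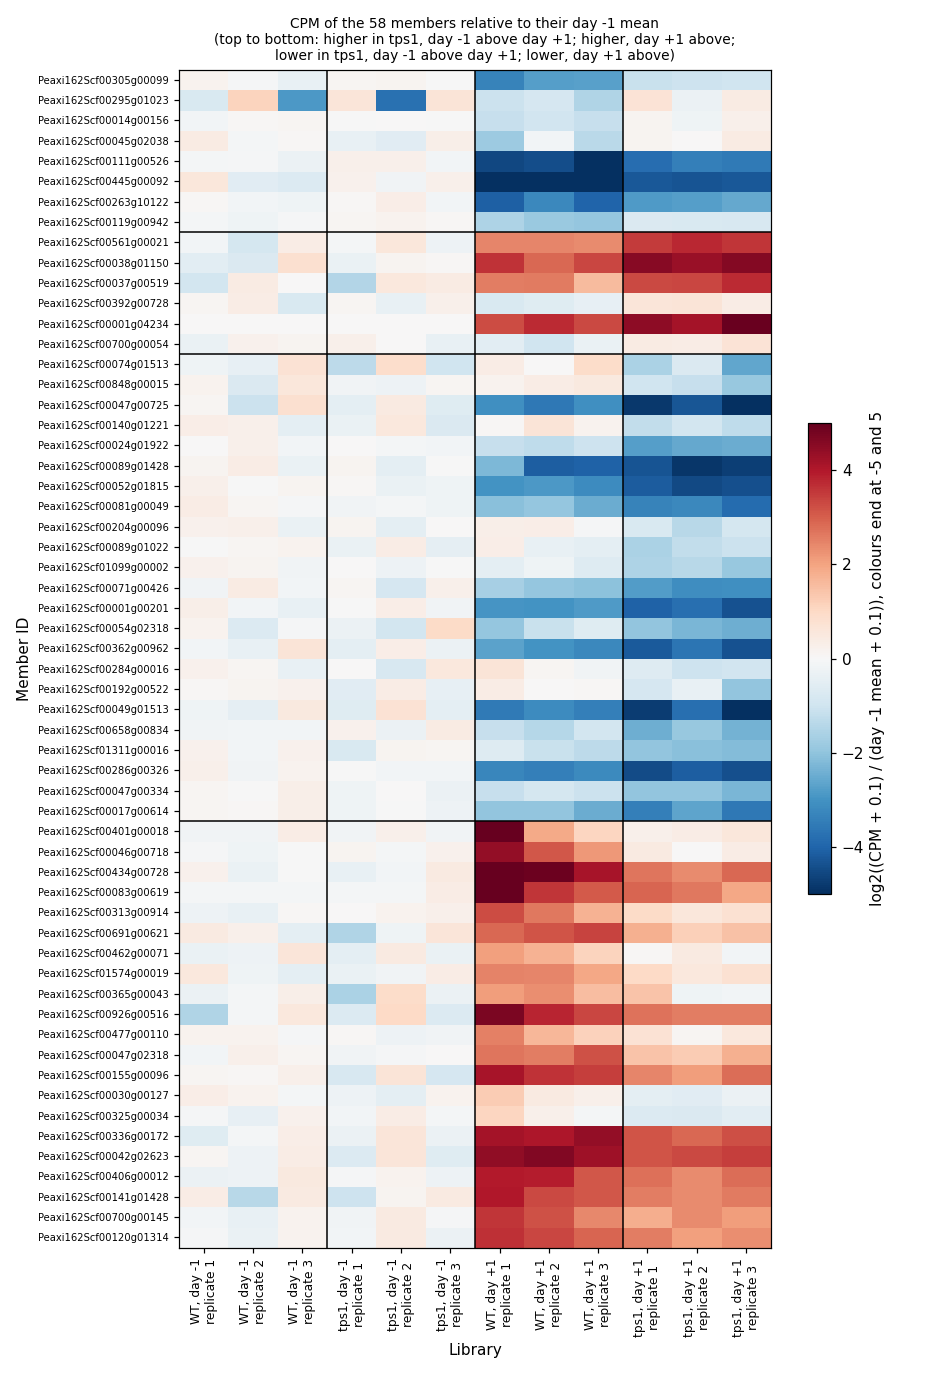
Level of each of the 58 members (lines of the map) in each of the 12 libraries (columns), as the log2 ratio of CPM + 0.1 to its day -1 mean + 0.1, with colours ending at -5 and 5. The lines run from the 14 members higher in tps1 at day +1 to the 44 lower ones, and within each direction from those with the higher mean at day -1 to those with the higher mean at day +1. The scaling centres each member on its own day -1 mean. The genotypes differ within the day +1 columns, as the rule requires.

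Counts were fitted in edgeR, and 57 of the 58 members passed its filter on low counts. At day +1, 14 members had an adjusted p under 0.05 in edgeR's quasi-likelihood test, 4 of them higher and 10 lower in tps1. Over all 21239 IDs tested, 0.4% were called in that contrast, 0.207% higher and 0.193% lower. Because the day +1 values chose the members, nothing is read from that count. DESeq2 called 41 members at day +1, against 1.49% of all IDs. All 58 had no overlap between the genotypes, as 19.1% of the tested IDs had.

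The working name of the group, genes that differ after opening only, was set against the test of the difference between days. In edgeR 0 of 57 members passed that test at an adjusted p under 0.05, and 0.00471% of all tested IDs did. The smallest adjusted p of a member was 0.153 in edgeR. At an unadjusted p under 0.05 there were 39 members, with 6.12% of all IDs, and the same data had chosen them. DESeq2 called 12 members, 3 higher and 9 lower, with 0.433% of all IDs, and limma-voom called 0 members and 0% of all IDs. The word "only" thus rests on the day -1 window of the rule, and edgeR's test of the difference did not show it for any member.

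Higher members with the greater mean at day -1 numbered 8. In WT they stood 2.06 to 36.8 times lower at day +1 than at day -1. In tps1 the distance between days was smaller for each of them, which follows largely from the rule. Peaxi162Scf00305g00099 had both the largest ratio and the highest level of the higher members. At day -1 it measured 169, 145 and 116 CPM in WT replicates 1, 2 and 3 and 159, 165 and 150.5 CPM in tps1. At day +1 it measured 14.7, 22.4 and 22.8 CPM in WT and 68.9, 72.7 and 76.1 CPM in tps1. The genotypes overlapped at day -1, and at day +1 the lowest tps1 library was 3.03 times the highest WT library. Its means at day +1 were 19.9 ± 4.57 CPM in WT and 72.5 ± 3.6 CPM in tps1 (SD, n = 3), a 3.63-fold difference. The level fell to 0.14 of its day -1 mean in WT and to 0.459 in tps1. On the log2 scale of edgeR the genotypes differed by 1.85 ± 0.17 (SE) at day +1 and the effects of the days by 1.72 ± 0.24 (SE), for which the edgeR adjusted p was 0.153. The DESeq2 adjusted p for that difference was 1.87e-08, so the tools disagreed, and the same values had chosen this ID.

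Peaxi162Scf00295g01023, the second by ratio in this class, was scattered at day -1, with 1.47, 5.6 and 0.267 CPM in WT and 3.94, 0.101 and 4.03 CPM in tps1. At day +1 it had 1.17, 1.4 and 0.831 CPM in WT and 4.17, 2.11 and 3.48 CPM in tps1. Its 2.71-fold difference at day +1 was smaller than the spread among the libraries of either genotype at day -1, so the day -1 ratio of 1.1 for this ID averages libraries that range over more than an order of magnitude. Peaxi162Scf00014g00156, chosen after its values were seen because it met the rule whichever library was left out, was the opposite case. It measured 18.2, 21.1 and 21.4 CPM in WT and 19.9, 20.4 and 19.6 CPM in tps1 at day -1. At day +1 it measured 8.94, 10.3 and 8.96 CPM in WT and 22.1, 17.4 and 23.9 CPM in tps1. WT at day +1 was the only group that stood apart, 2.24-fold below tps1, while the other 3 groups had means from 19.97 to 21.2 CPM.

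Higher members with the greater mean at day +1 numbered 6, and their day +1 ratios were close together, from 2.13 to 2.32. Peaxi162Scf00561g00021 led them. It had 1.61, 0.922 and 2.31 CPM in WT and 1.64, 2.62 and 1.46 CPM in tps1 at day -1, and 9.91, 10.1 and 9.38 CPM in WT and 20.9, 25.2 and 22.3 CPM in tps1 at day +1. Both genotypes were higher at day +1, by 5.76-fold in WT and 11.4-fold in tps1, and the 3 libraries of each lay close together there. Peaxi162Scf00038g01150 had a like pattern, from 0.56 to 1.82 CPM in the 6 day -1 libraries to 13.4, 7.97 and 11.1 CPM in WT and 25.7, 21.7 and 26.2 CPM in tps1. Its genotypes differed 2.25-fold at day +1, and WT replicate 2 was the lowest library of that day. Peaxi162Scf00392g00728 met the rule with any 1 library left out too. It was not chosen with 0.5 CPM added to the means, nor without both day -1 libraries numbered 2. It measured 1.02, 1.13 and 1.34 CPM in WT and 2.77, 2.86 and 2.36 CPM in tps1 at day +1, where the genotypes did not overlap, after 1.02 to 2.34 CPM in the 6 libraries of day -1, where they did. The lowest of the higher members at day -1, Peaxi162Scf00001g04234, had 0 counts in all 6 libraries of that day. Its day -1 ratio is therefore 1 because of the added 0.1 CPM, and no fold between days is given for it.

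Lower members with the greater mean at day -1 numbered 23, and their ratios at day +1 ran from 2.03 to 3.82 with a median of 2.16. Peaxi162Scf00074g01513 had the largest. At day -1 it measured 1.85, 1.61 and 3.6 CPM in WT and 0.819, 4.07 and 1.04 CPM in tps1, which overlap widely. After opening it measured 2.86, 2.22 and 4.16 CPM in WT and 0.665, 1.26 and 0.27 CPM in tps1. Peaxi162Scf00848g00015 was tighter, with 2.61, 2.99 and 3.28 CPM in WT and 1.09, 0.983 and 0.54 CPM in tps1 at day +1, a 3.15-fold difference. Its day -1 values of 2.61, 1.35 and 3.38 CPM in WT and 2.03, 1.88 and 2.42 CPM in tps1 overlapped.

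Among the abundant lower members, Peaxi162Scf00362g00962 had the highest day +1 mean. It measured 2235, 1924 and 3814 CPM in WT and 1742, 3084 and 1995 CPM in tps1 at day -1. After opening it measured 384, 312 and 266 CPM in WT and 133, 198 and 119.7 CPM in tps1. Both genotypes stood several-fold lower at day +1, by 8.29-fold in WT and 15.1-fold in tps1, and WT stayed above tps1 by 2.13-fold. Its difference between the days in the genotype effect was -0.87 ± 0.42 (SE) on the log2 scale, and at day -1 the highest library of each genotype was over 1.5 times its lowest.

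Peaxi162Scf00204g00096 and Peaxi162Scf01099g00002, chosen after their values were seen because they met the rule with any 1 library left out, were abundant on both days. Peaxi162Scf00204g00096 had 272, 278 and 187 CPM in WT and 259, 165 and 238 CPM in tps1 at day -1, then 287, 292 and 224 CPM in WT and 136, 90.2 and 127 CPM in tps1 at day +1. WT was near its day -1 level at day +1, at a ratio of 1.09, while tps1 was at 0.534 of its own. Peaxi162Scf01099g00002 had 171, 162 and 130.3 CPM in WT and 150, 125 and 147 CPM in tps1 at day -1, then 105, 126 and 94.8 CPM in WT and 51, 57.1 and 39.1 CPM in tps1 at day +1. In both, the genotypes overlapped before opening and lay at least 1.64-fold apart afterwards. Peaxi162Scf00024g01922, another that stayed, was at 3.78, 3.49 and 4.11 CPM in WT and 1.19, 1.36 and 1.45 CPM in tps1 at day +1. Its 6 day -1 libraries lay between 7.73 and 10.3 CPM, and the nearest day +1 libraries of the genotypes were 2.40-fold apart, among the widest gaps of this class.

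Lower members with the greater mean at day +1 numbered 21. They held the largest differences of all members, with a median ratio of 2.65, and the greatest spread among WT libraries. Peaxi162Scf00401g00018 had the largest ratio, 31.2, and 1 library made it. Its day +1 counts were 260, 7 and 3 in WT replicates 1, 2 and 3 and 1, 1 and 2 in tps1, so WT stood at 13.3, 0.317 and 0.139 CPM. In the 6 libraries of day -1 it had at most 1 count. This ID did not pass the filter on low counts, was not tested, and left the group when WT day +1 replicate 1 was left out. Peaxi162Scf00083g00619, at 4.28-fold, was also lost without that library. Its day +1 counts were 112, 26 and 17 in WT and 20, 12 and 9 in tps1. At day -1 it had at most 1 count in a library, so its day -1 ratio rests on the added 0.1 CPM.

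Peaxi162Scf00046g00718 was the next, at 9.27-fold. At day -1 it measured 9.02, 8 and 9.29 CPM in WT and 10.4, 8.77 and 10.9 CPM in tps1. At day +1 it measured 199, 82.7 and 43 CPM in WT and 13, 9.51 and 12.3 CPM in tps1. All 9 libraries outside WT day +1 lay between 8 and 13 CPM, while the WT libraries of day +1 were at 43 CPM or more and differed 4-fold or more among themselves. The lowest of them was 3.32 times the highest tps1 library, the widest gap between genotypes among the 58 members. The means were 108 ± 80.9 CPM in WT and 11.6 ± 1.82 CPM in tps1 (SD, n = 3). The edgeR log2 difference was -3.23 ± 0.45 (SE) at day +1, and the difference between the days was -3.41 ± 0.62 (SE) with an edgeR adjusted p of 0.226. In DESeq2 the adjusted p of the difference between the days was 4.4e-06, for an ID that the same values had chosen.

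Further members of this class that met the rule with any 1 library left out are described next, the first 2 of them chosen after their values were seen. Peaxi162Scf00434g00728 was at 0.156 to 0.346 CPM in the 6 day -1 libraries. At day +1 it had 13.8, 9.78 and 5.63 CPM in WT and 2.03, 1.59 and 2.33 CPM in tps1, a 4.72-fold difference. It stood higher at day +1 in both genotypes, 30.4-fold in WT and 6.23-fold in tps1. Peaxi162Scf01574g00019 had 12.7, 12.4 and 8.73 CPM in WT and 4.52, 3.23 and 3.82 CPM in tps1 at day +1, after 1.56 to 3.23 CPM at day -1. Peaxi162Scf00047g02318 had 15.4, 14.3 and 22.3 CPM in WT and 6.48, 5.71 and 8.17 CPM in tps1 at day +1, after 2.03 to 2.77 CPM at day -1. Each of these IDs was higher after opening in both genotypes, and the smaller increase was in tps1, as the rule requires.

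**Figure D2:**
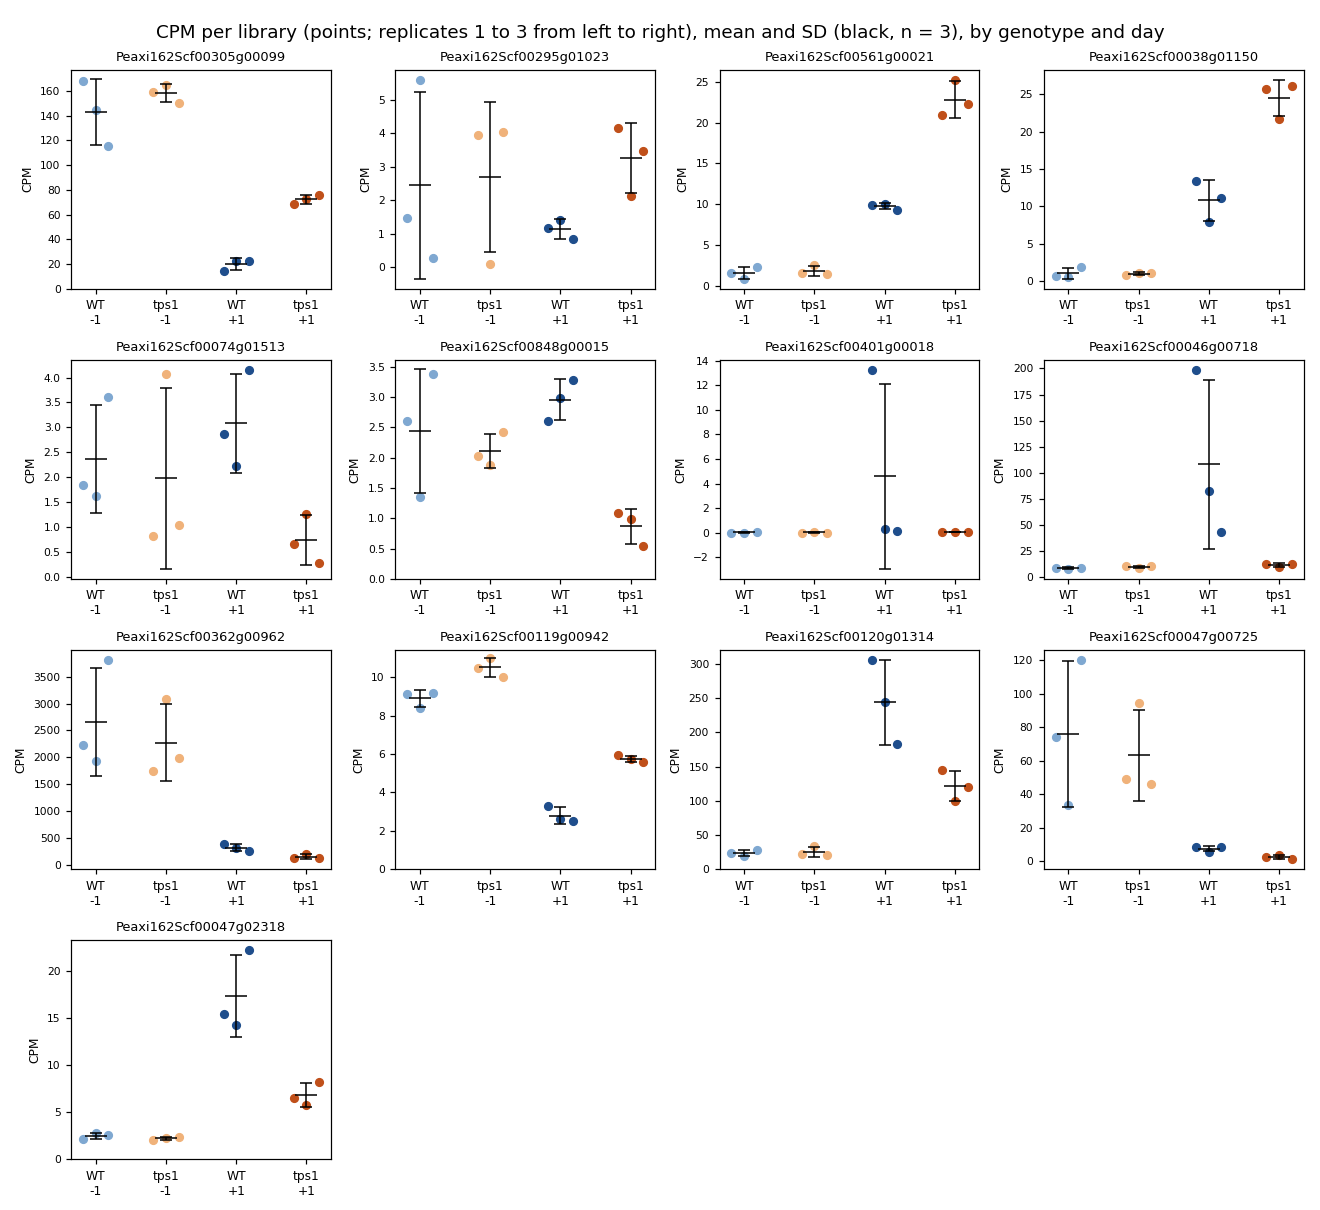
CPM (linear axis) of selected members by genotype and day, with points for replicates 1 to 3 from left to right and the mean and SD in black (n = 3). The genotypes overlap at day -1 in each panel except that of Peaxi162Scf00119g00942, and in the panel of Peaxi162Scf00401g00018 a single WT day +1 library at 13.3 CPM stands far above the other 11.

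Across the days, members could be split by whether a genotype's means (plus 0.1 CPM) differed 2-fold, a grouping chosen after the values were seen. Among the 14 higher members, 4 were at least 2-fold lower at day +1 in both genotypes, 4 were lower in WT and within 2-fold in tps1, 4 were higher in both and 2 were within 2-fold in both. Among the 44 lower members, 14 were lower at day +1 in both genotypes and 12 were higher in both. Another 7 were higher in WT and within 2-fold in tps1, as Peaxi162Scf00046g00718 was, at 12.2-fold and 1.15-fold. A further 6 were within 2-fold in WT and lower in tps1, as Peaxi162Scf00848g00015 was, and 5 were within 2-fold in both. In 34 members both genotypes thus changed at least 2-fold in the same direction between the days. Among them, Peaxi162Scf00001g04234 and Peaxi162Scf00083g00619 had at most 1 read in any day -1 library, so their folds rest on the added 0.1 CPM. No member had non-overlapping changes in opposite directions in the genotypes. The share over all IDs was not computed for either count, so nothing is read from them.

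Between the days, edgeR called 44 of the 57 tested members in WT, 24 higher and 20 lower at day +1. In tps1 it also called 44, 19 higher and 25 lower. Over all tested IDs 31.3% were called higher and 33.5% lower in WT, and 31.8% and 33% in tps1. These contrasts share the day +1 libraries with the rule, so the counts describe the members. The 34 lower members called in WT were 20 higher and 14 lower at day +1, and the 34 called in tps1 were 14 higher and 20 lower.

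**Figure D3:**
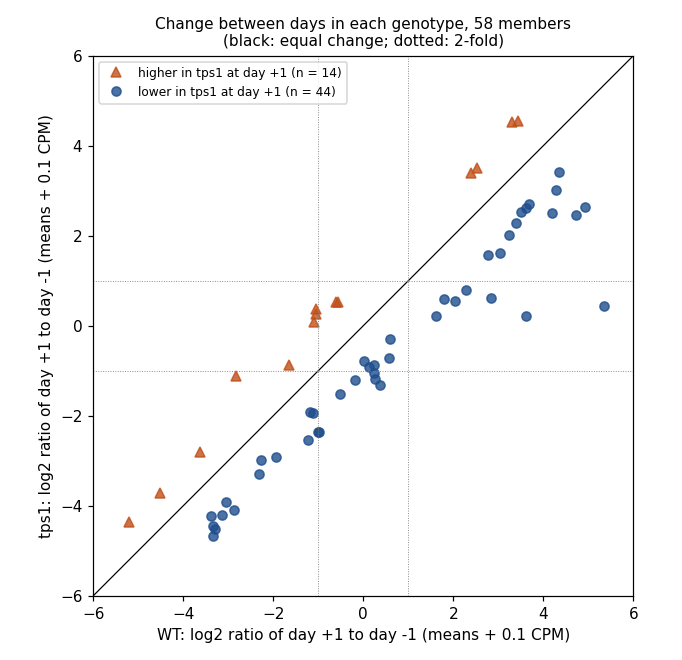
Log2 ratio of day +1 to day -1 means (each plus 0.1 CPM) of the 58 members in WT (horizontal axis) and tps1 (vertical axis), with the line of equal change in black and 2-fold limits dotted. The 14 higher members lie above the black line and the 44 lower members below it, as the rule requires, and they spread along the line from large falls to large increases.

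WT day +1 replicate 1 was the highest WT library in 24 of the 44 lower members, and in 16 of the 21 with the greater mean at day +1. In those same 16 replicate 3 was the lowest. Among the IDs with a day +1 mean of at least 2 CPM, replicate 1 was the highest in 23.9%. Replicate 1 stood above 2 and 2 above 3 in 19.2% of them. Over all 58 members, replicate 1 was at least 2 times replicate 3 in 12 members, 20.7%, compared with 0.55% of the 17277 IDs with a day +1 mean of at least 2 CPM. The rule used these libraries, and it limited replicate 3 against replicate 2 but set no limit on replicate 1, so the share is a description. The tps1 libraries of day +1 were closer together: the highest was at least 2 times the lowest (each plus 0.1 CPM) in 5 members, against 14 in WT. Peaxi162Scf00313g00914 showed the pattern at a high level, with 429.9, 283 and 149 CPM in WT and 87.6, 66.8 and 76.7 CPM in tps1. Why WT replicate 1 was high in these members was not tested. Over the 17277 IDs it differed 2-fold from its group less often than replicates 2 and 3 did.

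**Figure D4:**
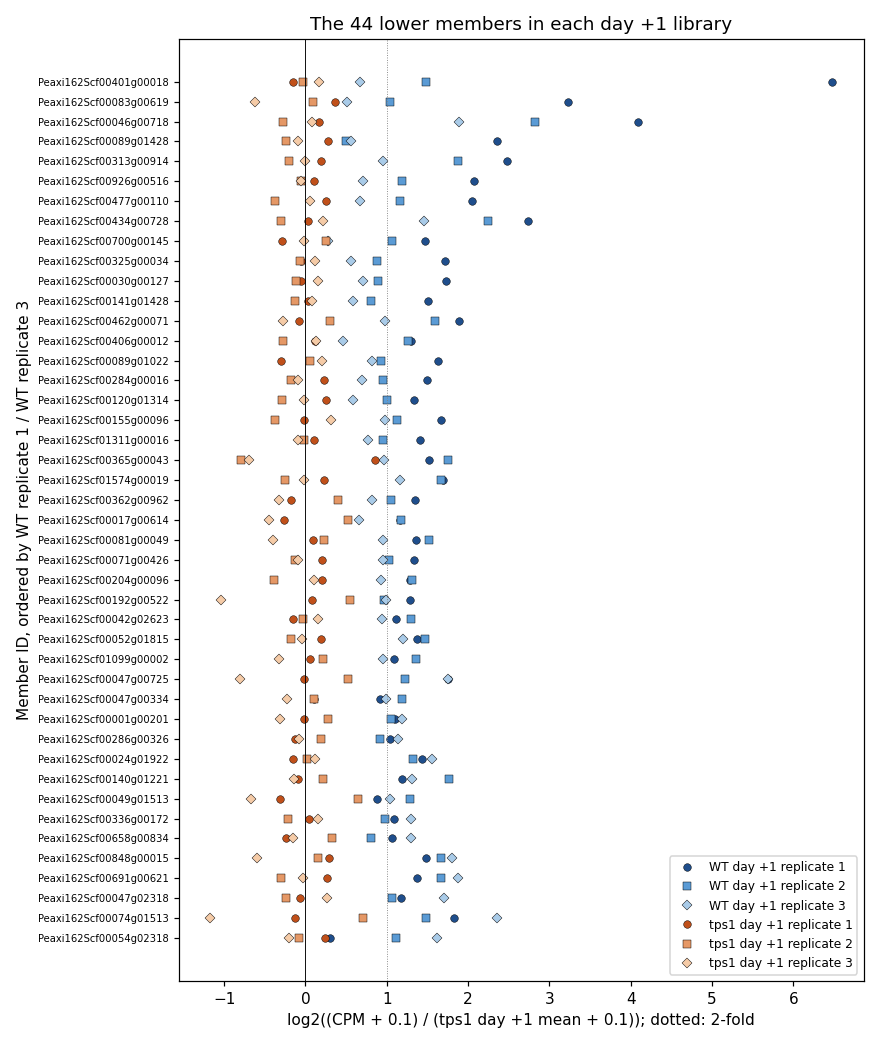
The 44 lower members in each day +1 library, as the log2 ratio of CPM + 0.1 to the tps1 day +1 mean + 0.1, ordered by WT replicate 1 over WT replicate 3; the dotted line marks 2-fold. WT points lie to the right of tps1 points for each member, and at the end of the order with the largest replicate 1 values the 3 WT libraries are far apart.

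At day -1 edgeR called 0 members, with 0.184% of all tested IDs called. At an unadjusted p under 0.05 it gave 2 members, against 7.71% of all IDs. DESeq2 called 0 members, with 1.88% of all IDs, and limma-voom 0 members, with 0.16%. The rule asked for a day -1 ratio near 1, so few calls follow from the choice. Within the window the ratios leaned toward the day +1 direction. Among the lower members 29 had a day -1 ratio below 1 and 15 above it, with a median of 0.906. Among the higher members 9 were above 1 and 4 below it, with a median of 1.1. The precision differed between members: the interval of 2 SE around the day -1 difference stayed within 2-fold for 40 of the 56 members with an SE and reached 2-fold for 16. For those 16 a 2-fold difference before opening lies inside the interval. The genotypes did not overlap at day -1 in 3 members, 5.17%, against 7.67% of the tested IDs. Named after their values were seen, they were Peaxi162Scf00119g00942, higher in tps1, and Peaxi162Scf00081g00049 and Peaxi162Scf00017g00614, lower in tps1, each in the direction it had at day +1. Peaxi162Scf00081g00049 had 768, 643 and 578 CPM in WT and 531, 556 and 509.6 CPM in tps1 at day -1, then 139, 157 and 106 CPM in WT and 58.3, 63.7 and 41.4 CPM in tps1. It stood lower in tps1 on both days, by a day -1 ratio of 0.802, just inside the window.

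Several day -1 means averaged libraries that stood far apart. WT replicate 3 and tps1 replicate 2 were both the highest or both the lowest library of their group in 33 of the 58 members, 56.9%, and in 45.8% of the 17277 IDs. Peaxi162Scf00047g00725, on the same scaffold number as Peaxi162Scf00047g02318, was one of them. It had 74.4, 33.4 and 120.2 CPM in WT and 49.4, 94.6 and 45.8 CPM in tps1 at day -1, then 8.22, 5.71 and 8.22 CPM in WT and 2.35, 3.47 and 1.32 CPM in tps1. Its day -1 ratio of 0.832 averages libraries that differ over 2-fold within each genotype.

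When the rule was applied with 1 library left out, 38 to 54 of the 58 members were chosen again. The fewest, 38, were kept without WT day +1 replicate 1 and without tps1 day -1 replicate 2, and each setting lost 2 higher and 18 lower members. The 18 lower members lost without WT day +1 replicate 1 had a median ratio of replicate 1 to replicate 3 of 1.87, and the 26 kept had one of 0.976. The rule also chose other IDs in these settings. Leaving out WT day +1 replicate 3 gave 196 IDs, 133 higher and 63 lower, so that higher IDs outnumbered lower ones, the reverse of the 14 and 44 found with all libraries. Only 8 of those 133 were among the 14 higher members, and 41 of the 63 were among the 44 lower ones. Without both day -1 libraries numbered 2, 27 members were lost, 4 higher and 23 lower. Members kept in all 12 settings numbered 10. They were Peaxi162Scf00305g00099, Peaxi162Scf00014g00156 and Peaxi162Scf00392g00728, higher in tps1, and Peaxi162Scf00024g01922, Peaxi162Scf00204g00096, Peaxi162Scf01099g00002, Peaxi162Scf00046g00718, Peaxi162Scf00434g00728, Peaxi162Scf01574g00019 and Peaxi162Scf00047g02318, lower in tps1. Of these 10, edgeR called 7 at day +1, with 0.4% of all tested IDs called. The same day +1 values had chosen the 10, so nothing is read from that count.

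**Figure D5:**
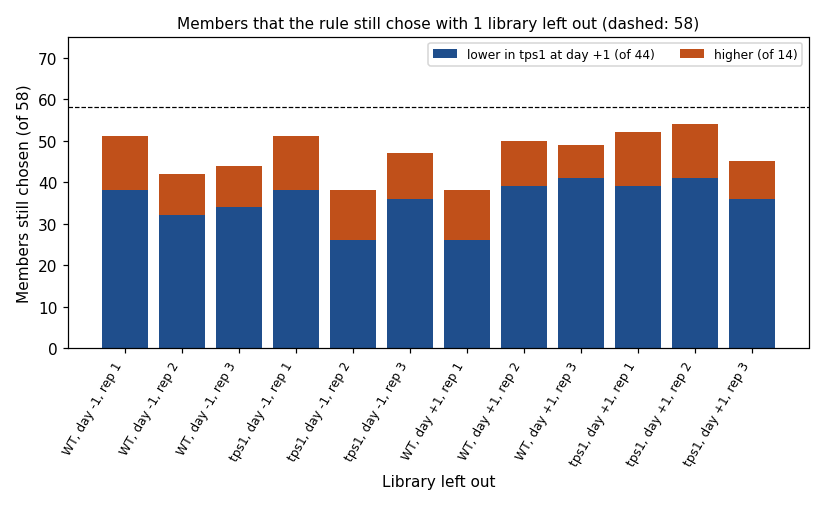
Number of the 58 members that the rule still chose with the named library left out, lower members in blue and higher members in orange, with the dashed line at 58. The bars run from 38, for tps1 replicate 2 of day -1 and WT replicate 1 of day +1, to 54, without tps1 day +1 replicate 2.

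IDs lay close to the 2-fold limit on either side. Among higher IDs, Peaxi162Scf00119g00942 was just inside at 2.02-fold, with 3.27, 2.58 and 2.49 CPM in WT and 5.92, 5.71 and 5.57 CPM in tps1 at day +1. Peaxi162Scf01132g00021 met each of the other conditions and was just outside at 1.999-fold, with 0.766, 1.63 and 1.15 CPM in WT and 2.63, 1.73 and 3.04 CPM in tps1. Among lower IDs, Peaxi162Scf00120g01314 was just inside at 2.01-fold, with 306, 244 and 182 CPM in WT and 145, 99.6 and 120.4 CPM in tps1. Peaxi162Scf00366g00528 was just outside at 1.98-fold, with 16.1, 14.6 and 17.7 CPM in WT and 8.09, 10.9 and 5.3 CPM in tps1. The nearest libraries of the genotypes were 1.7-fold apart for Peaxi162Scf00119g00942 and 1.26-fold apart for Peaxi162Scf00120g01314, on either side of the median of all members.

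By the scaffold number in their IDs, the 58 members lay on 53 scaffolds. Only 4 scaffold numbers held more than 1 member, 9 members in all, which gives 6 pairs, of which 4 had the same direction. Scaffold number Scf00047 held 3 lower members, Peaxi162Scf00047g00334, Peaxi162Scf00047g00725 and Peaxi162Scf00047g02318, among 227 IDs with that number. At day +1 the first was at 3.78, 4.57 and 3.97 CPM in WT and 2.1, 2.11 and 1.65 CPM in tps1. The first and second were lower at day +1 than at day -1 in both genotypes, and the third was higher in both, so the 3 did not share a day pattern. Distances between IDs on a scaffold were not used here.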

How the data were processed

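The deposited table holds raw read counts per gene ID in 12 libraries. Per the submitters' processing notes the authors used cutadapt, TopHat2 and HTSeq. Versions, strand setting and genome build were not given in the sources used here, so reads of overlapping, antisense or near-identical genes cannot be separated. Columns were matched to samples by the sample descriptions. CPM and ratios were computed from the counts with 0.1 CPM added to means.

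The members and lists were chosen with earlier results of these data known. Named IDs were the 2 largest day +1 ratios in each of 4 classes (direction by the day with the higher mean), the highest day +1 mean, the IDs on either side of the 2-fold limit and 1 scaffold pair. The direction with higher members had no pair of its own. Any other ID named was picked with its values in view. Lists of pathway and tissue genes needed names and were not used.

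Counts were fitted in R 4.3.3 with edgeR 4.0.16 (quasi-likelihood test, filterByExpr with a minimum count of 10 in at least 3 libraries, TMM scaling, 4 group means over all 12 libraries). The 21239 IDs kept held 99.95 to 99.97% of the counts of each library. P-values were adjusted by Benjamini-Hochberg over all IDs tested, with a threshold of 0.05. The common dispersion was 0.0607. The SE of a log2 difference is its size over the square root of the F statistic, an approximation. DESeq2 1.42.0, limma 3.58.1 (voom), other scalings, filters and rule settings, and leaving out each library were alternatives. Depth limits low values, and floors cover counting error only.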

Additional observations from a re-analysis of the deposited data

How the results depend on the processing

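The rule gave 58 members, 14 higher and 44 lower. With 0.5 CPM added to the means it gave 9 higher members, of which 6 were among the 14. A minimum mean of 5 CPM gave 35 members, 8 higher and 27 lower, since it only removes. A day -1 window of 0.67 to 1.5 gave 24 higher members. Without both day -1 libraries numbered 2 it gave 28 lower members, of which 21 were among the 44. With 1 library left out the rule gave 42 to 196 members, 9 to 133 higher and 28 to 63 lower. The 196 came without WT day +1 replicate 3, and 49 of the 58 were among them. The condition on WT replicates 3 and 2 could not be applied there, but dropping that condition alone gave 61 members, 16 higher and 45 lower, and leaving out WT day +1 replicate 2, which also removes it, gave 66. The lowest lower count, 28, came without WT day +1 replicate 1. Other scalings gave 59 and 60 members.

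At day +1 edgeR called 14 of the 57 tested members and 85 of all IDs. Leaving out 1 library gave 5 to 24 members, and the calls over all IDs moved with them. Members called numbered 24, with 126 of all IDs, without tps1 day -1 replicate 2. They numbered 8 and 9, with 40 and 46 of all IDs, without WT day +1 replicates 1 and 2, and 5 and 7, with 26 and 34, without tps1 day +1 replicates 1 and 3. With DESeq2 they were 41, with 316 of all IDs. When both day -1 libraries numbered 2 were left out, they were 23, with 169. The difference between the days was called for 12 members and 92 of all IDs with DESeq2, and for 0 members in every edgeR setting and with limma-voom. The cause of these differences was not tested. With the replicate number as a block, edgeR called 12 members at day +1, 0 at day -1, 0 for the difference, and 44 and 43 between days in WT and tps1, with 52, 23, 0, 13241 and 13365 of all 21239 IDs. Deviations of log2 CPM from the group mean were correlated between libraries of the genotypes. Same-numbered libraries gave 0.087, -0.176 and -0.384 at day -1 and -0.236, 0.549 and -0.176 at day +1. Differently numbered ones gave -0.476 to 0.529 at day -1 and -0.69 to 0.678 at day +1. Deviations within a group of 3 offset one another, so these values cannot tell whether the numbers pair samples. The day +1 difference was refitted for the 14 IDs of the naming rule that passed the filter, and none of these changed direction under the alternatives run. It was not refitted for the other IDs named. Calls of the 14 were gained 16 times and lost 10 times, the losses all at Peaxi162Scf00046g00718 and Peaxi162Scf00047g02318, whose adjusted p then lay between 0.056 and 0.129 in edgeR. With 1 library left out, a group keeps 2, and members under a few CPM rest on few counts, as Peaxi162Scf00401g00018 shows.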
